A study of Mus musculus with 6 samples.

Results

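The voltage-gated sodium channel subunit genes were followed in mouse sensory neurons that contain parvalbumin, with and without Dicer, the enzyme that releases mature microRNAs from their hairpins. The set held 9 genes chosen by name, 6 that encode pore-forming alpha subunits (Scn1a, Scn8a, Scn9a, Scn10a, Scn11a and Scn3a) and 3 that encode auxiliary beta subunits (Scn4b, Scn3b and Scn2b), and all 9 were found among the 31469 rows of the table. Scn8a had 2 rows, of which the one with the higher mean was used. RNA sequencing libraries came from parvalbumin-positive neurons of lumbar 4 dorsal root ganglia in 3 Dicer knockout and 3 wild-type samples, all of strain C57BL/6 at postnatal day 21. In the knockout samples parvalbumin-driven Cre deleted Dicer, so the gene was lost only in cells that express or had expressed parvalbumin. The labels do not say whether the wild-type animals carried Cre or a loxP-flanked allele, how the cells were collected, or whether separate animals gave the libraries. The p-values therefore measure the spread between these samples, which may be partly technical.

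A sodium channel opens when the membrane depolarizes and carries the rising phase of the action potential, and each alpha subunit forms a complete pore. Beta subunits are single-span membrane proteins that set gating speed and surface level and bind adhesion partners. In the sensory ganglion the channels divide by cell class. Large myelinated neurons, proprioceptors among them, rely on Nav1.1 (Scn1a) and Nav1.6 (Scn8a) with the beta 4 subunit (Scn4b), whereas the tetrodotoxin-resistant Nav1.8 (Scn10a) and Nav1.9 (Scn11a) are characteristic of nociceptors. Nav1.7 (Scn9a) sets the firing threshold of nociceptors and is also made by other sensory neurons.

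Values are in TPM, the relative abundance of transcripts scaled by their length, and each library summed to 1000000. The libraries had 13237 to 13960 rows at 1 TPM or more, and the sequencing depth is unknown. Correlations of log2 values between libraries were 0.963 to 0.973 within knockout, 0.949 to 0.968 within wild type and 0.925 to 0.964 between genotypes. Replicate 3 of each group differed from the other 4 libraries in sex-linked transcripts. Dicer1 itself (chromosome 12, 104687740 to 104751968, GRCm38) had 24.0, 20.8 and 21.8 TPM in the knockout libraries, against 36.7, 26.0 and 48.7 TPM in the wild-type libraries. The groups did not overlap, and the difference did not pass the test (log2 difference -0.68, limma adjusted p = 0.104). A whole-gene value does not isolate the deleted exons. Of the 10 measured proprioceptor markers, such as Pvalb, Runx3 and Etv1, all were detected in every library and 8 fell in knockout, beside 3.17% of all rows tested. Their summed level was 873 to 1083 TPM in knockout and 1892 to 2026 TPM in wild type. This list was chosen with earlier results of these data known, so its count and sum are not independent evidence of a fall. Genes listed as markers of low-threshold mechanoreceptors, another class with large fibres, summed to 379 to 516 TPM in knockout and 266 to 396 TPM in wild type. Those ranges overlapped. Of 8 tested, 2 rose (Ret and Gfra2) and 1 fell (Calb2), beside 1.86% of all rows called higher and 3.17% called lower. Ret averaged 203 TPM in knockout and 107 TPM in wild type, Gfra2 110 and 39.6 TPM, and Calb2 18.9 and 47.8 TPM. The list thus did not move in 1 direction. Whether the Ret and Gfra2 transcripts came from cells with large fibres was not tested. The part of these marker differences in the channel values was not tested.

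**Figure D1:**
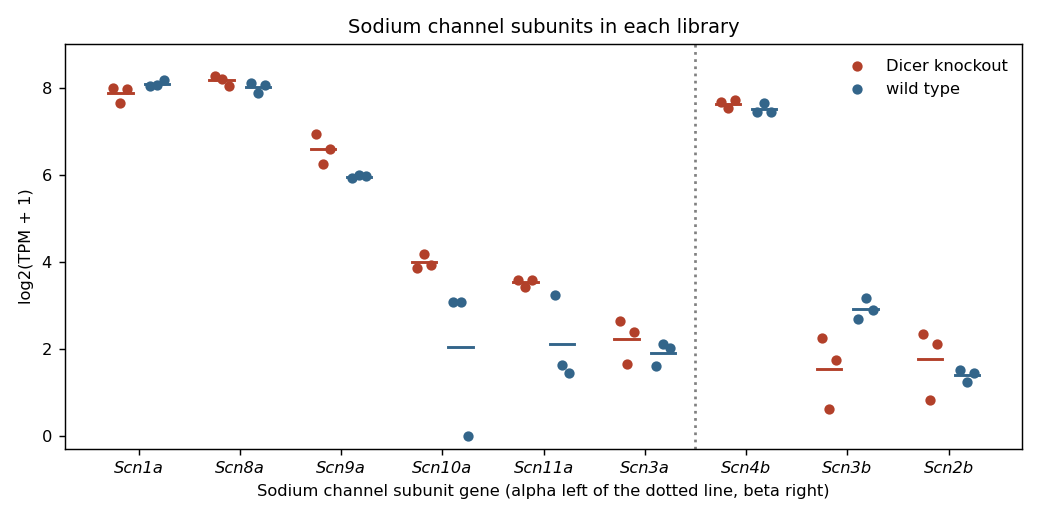
Level of each sodium channel subunit gene as log2(TPM + 1), with 1 point per library, knockout left of wild type, and a bar at the mean of 3 libraries. Scn1a, Scn8a and Scn4b stand near 8 in both genotypes, Scn9a is lower, and the other 5 genes lie below them with the widest spread between libraries.

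Both genotypes expressed the large-fibre subunits most, and the nociceptor-type tetrodotoxin-resistant channels at a low level. In TPM, which is comparable between genes, the knockout order was Scn8a, Scn1a, Scn4b and Scn9a, followed by Scn10a, Scn11a, Scn3a, Scn2b and Scn3b. In wild type Scn1a and Scn8a stood first with overlapping ranges, then Scn4b and Scn9a, and then Scn3b, Scn10a, Scn11a, Scn3a and Scn2b. The ranges of neighbours overlapped in knockout for Scn1a and Scn4b, Scn3a and Scn2b, and Scn2b and Scn3b. Within every single knockout library, however, the first gene of each of these pairs was the higher. In wild type the neighbouring pairs that overlapped were Scn1a and Scn8a, Scn3b and Scn10a, Scn10a and Scn11a, and Scn11a and Scn3a. Scn10a and Scn11a stood above Scn3a with no overlap in knockout, while Scn11a overlapped Scn3a in wild type.

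The genes fall into clusters on the mouse genome (GRCm38). Scn3a (65457118 to 65567591), Scn1a (66270781 to 66440837) and Scn9a (66480080 to 66635114) lie on chromosome 2, and 39.2 kb separate Scn1a from Scn9a. Scn10a (119608456 to 119719322) and Scn11a (119753763 to 119825456) are neighbours on chromosome 9, 34.4 kb apart. Scn2b (45117876 to 45130070) and Scn4b (45138624 to 45154155) are 8.6 kb apart on the same chromosome, with Scn3b at 40269216 to 40291618. Scn8a stands apart from the other members on chromosome 15 (100869863 to 101045938).

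Because Dicer makes microRNAs, the annotated 3′ UTRs of the members were searched for the 7 letters that pair with bases 2 to 8 (the seed) of microRNAs common in neurons. Of 17 names looked up, 16 matched RefSeq entries on GRCm38. Matches were found in 8 of the 9 members, 41 in all, and the exception was Scn10a, whose 3′ UTR is 469 bases long. The seed matches of miR-30a-5p and let-7a-5p are shown, since the first recurs in related alpha subunit genes and the second lies in Scn11a. Capitals mark the seed in the microRNAs.
miR-30a-5p: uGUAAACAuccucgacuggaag
let-7a-5p: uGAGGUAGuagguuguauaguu

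The letters TGTTTAC, which pair with the miR-30a-5p seed, were present in 5 of the 9 members, against 13.8% of the 21005 genes with an annotated 3′ UTR. The member UTRs are long, and among genes with UTRs of like length (0.8 to 1.25 times) the share was 21.4% for Scn1a, 30.3% for Scn9a, 30.9% for Scn3a, 28.9% for Scn3b and 41.7% for Scn8a. The windows below read 5′ to 3′ on the transcript, with the 7 letters in capitals.
Scn1a, 7 letters at chr2:66272838-66272844, minus strand: tgggtgacaaatTGTTTACagcctgtgaag
Scn3a, 7 letters at chr2:65460470-65460476, minus strand: tttgtaatcaatTGTTTACagcctctgaag
Scn9a, 7 letters at chr2:66483392-66483398, minus strand: gttttgatacacTGTTTACagcctgcgaag
Scn8a, 7 letters at chr15:101040740-101040746, plus strand: caagtgaaagctTGTTTACaaacttccgaa
Scn3b, 7 letters at chr9:40290703-40290709, plus strand: ttcctttcaattTGTTTACacattattctt

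In Scn1a, Scn3a and Scn9a, 3 genes of the chromosome 2 cluster, the match began 41, 81 and 20 bases into the 3′ UTR. The Scn8a match began at base 52, while that of Scn3b began at base 2266. The windows of Scn1a and Scn3a had 24 of 30 letters in common, and each had 22 in common with that of Scn9a. All 3 shared the 12 letters TGTTTACAGCCT, which 11 of the 21005 genes (0.052%) held, Scn2a of the same cluster among them. Scn9a had another match at base 3213. A match describes the sequence, and binding by a microRNA was not measured.

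For let-7a-5p the letters CTACCTC were present in Scn11a, Scn8a and Scn4b, against 9.0% of all genes.
Scn11a, 7 letters at chr9:119754226-119754232, minus strand: ccacctgcacgcCTACCTCacagcctcaca
Scn8a, 7 letters at chr15:101045473-101045479, plus strand: aataatactgacCTACCTCacaggggtgtt
Scn4b, 7 letters at chr9:45152694-45152700, plus strand: gtgaaataatacCTACCTCacaggactgca

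The Scn11a 3′ UTR has 491 bases, and 3.8% of genes with UTRs of like length held these letters. The share was 27.2% at the length of the Scn8a UTR and 19.4% at that of Scn4b. The seed match of miR-218-5p also occurred in 5 members (Scn1a, Scn9a, Scn4b, Scn3b and Scn2b), that of miR-15a-5p in 4 (Scn8a, Scn3a, Scn4b and Scn2b), and those of miR-96-5p and miR-183-5p in 0. Of the 5 members with TGTTTAC, 3 had a higher and 2 a lower mean log2 value in knockout, and all 3 with CTACCTC had a higher one, beside 7 of the 9 members, and none of these differences passed the test.

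No member passed the test for a difference between genotypes. In simulated data the test recovered 12% of 1.5-fold and 48.2% of 2-fold changes, averaged over rows of all levels. Changes of that size could thus be missed, though these averages do not give the rate for any single member. Over the 13787 rows whose mean reached 1 TPM, limma called 5.03% at an adjusted p below 0.05 (256 higher and 437 lower in knockout), and 0 of the 9 members were among them. With median-of-ratios scaling the split over all rows was 366 higher and 400 lower. The unadjusted p was below 0.05 for 4 members, 3 of them higher (Scn9a, Scn10a and Scn11a) and 1 lower (Scn3b), beside 23.8% of all rows tested (9.77% higher and 14.1% lower). The groups did not overlap for 5 members, these 4 and Scn1a, beside 28.9% of all rows (11.8% higher and 17.1% lower). The median log2 difference was 0.32 over the 9 members and -0.05 over all rows tested. A bulk measurement cannot tell apart fewer cells of a type and less RNA per cell.

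The large-fibre alpha subunits Scn1a and Scn8a had the highest levels of the 6 alpha members in every library. Scn1a, which encodes Nav1.1, had 255, 199.9 and 249.97 TPM in knockout libraries, against 262, 267 and 286 TPM in wild-type libraries. The 3 knockout values lay below the 3 wild-type values, though 2 of them by little. The log2 difference was -0.22 (SE 0.12, 95% interval -0.49 to 0.06, limma adjusted p = 0.317). Scn8a, which encodes the Nav1.6 channel of axon initial segments and nodes of Ranvier, had 309, 294 and 259 TPM in knockout libraries, against 276, 235 and 267 TPM in wild-type libraries. These ranges overlapped, with a log2 difference of 0.15 (SE 0.11, interval -0.11 to 0.41, limma adjusted p = 0.475). The second Scn8a row was low, at 5.36, 7.32 and 12.1 TPM in knockout and 6.23, 6.62 and 3.35 TPM in wild type. Leaving out knockout replicate 2 gave -0.11 for Scn1a, and leaving out single libraries gave 0.079 (without wild-type replicate 2) to 0.22 (without knockout replicate 3) for Scn8a. For both genes the interval leaves out a 2-fold change in either direction.

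Scn9a was the nociceptor-type alpha subunit with the highest level. It had 121, 74.3 and 94.5 TPM in knockout libraries, against 59.4, 62.7 and 61.2 TPM in wild-type libraries. Every knockout value lay above every wild-type value, and the knockout libraries spread over a wider range. The means were 96.7 ± 23.5 TPM in knockout and 61.1 ± 1.66 TPM in wild type (SD, n = 3 each), a 1.58-fold ratio. On the log2(TPM + 1) scale the difference was 0.63 (SE 0.17, interval 0.24 to 1.01, limma adjusted p = 0.0707), which did not pass. Scn9a was called higher without knockout replicate 2, its lowest knockout library (0.80, adjusted p = 0.0487), and with 3 of the other settings, and over all 17 alternatives its adjusted p ranged from 0.0405 to 0.278.

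Scn10a and Scn11a, the tetrodotoxin-resistant channels, had low levels that varied most among wild-type libraries. Scn10a had 13.4, 17.1 and 14.1 TPM in knockout libraries, against 7.38, 7.44 and 0 TPM in wild-type libraries. The knockout libraries were all above the wild-type ones, and wild-type replicate 3 was listed at 0, which can be a failed estimate. The log2 difference of 1.93 (SE 0.72, interval 0.31 to 3.55, limma adjusted p = 0.144) rested in large part on that library and was 0.91 without it (adjusted p = 0.0978). It also depended on the pseudocount, at 3.06 with a pseudocount of 0.1 (adjusted p = 0.241).

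Scn11a had 10.9, 9.63 and 11.0 TPM in knockout libraries, against 8.37, 2.10 and 1.71 TPM in wild-type libraries. The groups did not overlap, though wild-type replicate 1 came close to the knockout libraries. Its log2 difference was 1.42 (SE 0.44, interval 0.44 to 2.41, limma adjusted p = 0.0917). Without wild-type replicate 1 it was 1.99 and passed (adjusted p = 0.0168), and over all 17 alternatives the adjusted p ranged from 0.0168 to 0.369.

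Scn3a encodes Nav1.3, a channel of embryonic neurons that returns in rodent sensory neurons after nerve injury. It had 5.25, 2.11 and 4.23 TPM in knockout libraries, against 2.04, 3.28 and 3.04 TPM in wild-type libraries. The ranges overlapped, and the log2 difference was 0.32 (SE 0.34, interval -0.46 to 1.10, limma adjusted p = 0.617). It was 0.61 without knockout replicate 2 and 0.11 without knockout replicate 1, and leaving out wild-type replicate 1 gave 0.17.

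The beta subunits differed from one another in level and in direction. Scn4b, whose cytoplasmic tail has been tied to the resurgent current of fast-firing neurons, had 201, 183 and 208 TPM in knockout libraries, against 171, 199.8 and 172 TPM in wild-type libraries. The groups overlapped, and the log2 difference was 0.13 (SE 0.11, interval -0.13 to 0.38, limma adjusted p = 0.531). It was 0.20 without wild-type replicate 2. It made up 97.6 ± 1.55% of the summed TPM of the 3 beta members in knockout and 95.6 ± 0.26% in wild type (SD, n = 3 each).

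Scn3b, the beta 3 subunit found in small rodent sensory neurons, was classed as nociceptor-type but had lower values in knockout. It had 3.77, 0.52 and 2.33 TPM in knockout libraries, against 5.40, 8.03 and 6.45 TPM in wild-type libraries. All knockout values were below all wild-type values. The log2 difference was -1.39 (SE 0.42, interval -2.34 to -0.43, limma adjusted p = 0.0900), and it was -0.92 without knockout replicate 2 (adjusted p = 0.195). Scn2b, the beta 2 subunit that is linked to the alpha subunit by a disulfide bond, had 4.08, 0.76 and 3.28 TPM in knockout libraries, against 1.84, 1.34 and 1.72 TPM in wild-type libraries. Knockout replicate 2 lay below the wild-type libraries and the other 2 above them (log2 difference 0.36, SE 0.44, interval -0.63 to 1.35, limma adjusted p = 0.658). That difference was 0.83 without knockout replicate 2, 0.065 without knockout replicate 1 and 0.19 without knockout replicate 3.

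Knockout replicate 2 was the lowest knockout library for 7 of the 9 members, all but Scn8a and Scn10a. In wild type the lowest library was replicate 1 for 5 members and replicates 2 and 3 for 2 each. The summed level of the 9 members was 923, 781 and 847 TPM in knockout libraries, against 794, 786 and 798 TPM in wild-type libraries, with overlapping ranges.

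**Figure D2:**
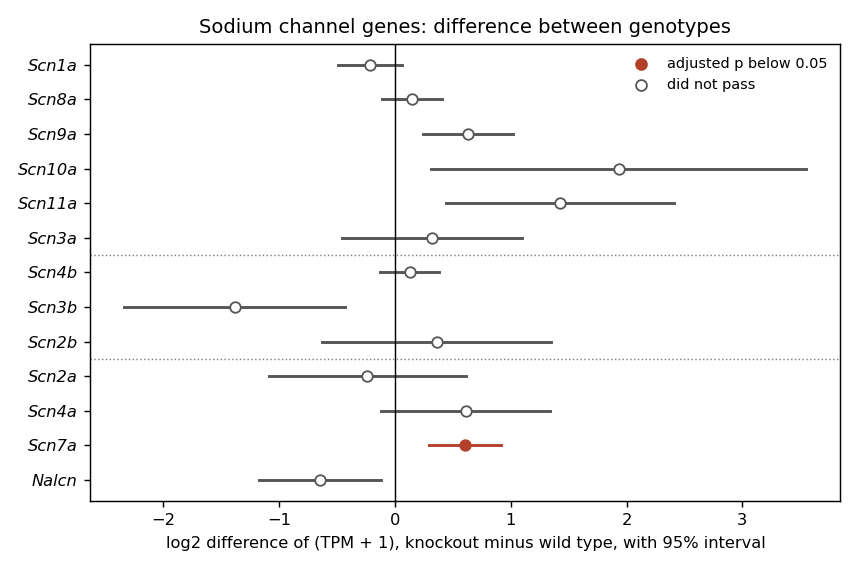
Log2 difference of (TPM + 1), knockout minus wild type, for the 6 alpha members (top), the 3 beta members (middle) and 4 further channel genes (bottom), with 95% intervals from limma and filled points where the adjusted p was below 0.05. Among the 9 members 4 intervals leave out 0, those of Scn9a, Scn10a, Scn11a and Scn3b, and none of these passed after adjustment.

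The nociceptor-type share of the alpha subunit transcripts did not overlap between genotypes, while the ranges of their total did. The 6 alpha members summed to 714, 597 and 633 TPM in knockout libraries, against 616, 577 and 619 TPM in wild-type libraries. Scn9a, Scn10a and Scn11a together held 20.4%, 16.9% and 18.9% of that sum in knockout libraries, against 12.2%, 12.5% and 10.2% in wild-type libraries. The lowest knockout share was above the highest wild-type share, with means of 18.7 ± 1.72% in knockout and 11.6 ± 1.27% in wild type (SD, n = 3 each). The rest of the sum was Scn1a, Scn8a and the low Scn3a, so the share of Scn1a and Scn8a is not a separate result. Scn1a and Scn8a together held 78.9%, 82.7% and 80.4% in knockout libraries, against 87.5%, 86.9% and 89.3% in wild-type libraries. No test was run on these shares, since the genes were chosen with results of these data known.

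Most of the nociceptor-type share was Scn9a, at 14.8 ± 2.26% of the alpha sum in knockout and 10.1 ± 0.64% in wild type (SD, n = 3 each). Scn10a and Scn11a added 3.39%, 4.49% and 3.97% in knockout libraries, against 2.56%, 1.65% and 0.276% in wild-type libraries. The level of Scn1a was 2.10, 2.69 and 2.65 times that of Scn9a in knockout libraries, against 4.42, 4.25 and 4.68 times in wild-type libraries. Scn8a stood above Scn1a in every knockout library, at ratios of 1.21, 1.47 and 1.04, against 1.05, 0.882 and 0.931 in wild-type libraries.

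**Figure D3:**
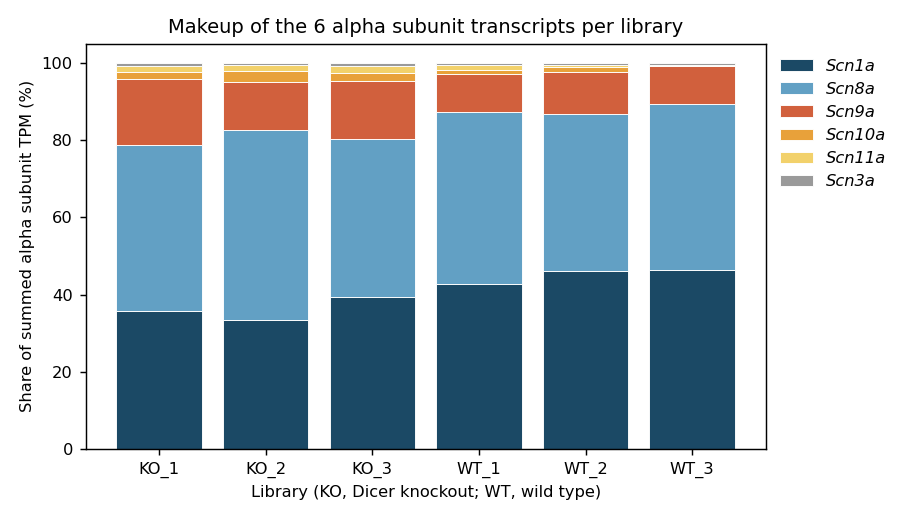
Share of each alpha subunit gene in the summed TPM of the 6 alpha members, in percent, for each knockout (KO) and wild-type (WT) library. The 3 nociceptor-type genes take 16.9% to 20.4% of the bar in knockout and 10.2% to 12.5% in wild type.

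Nociceptor markers were compared as a list, since the libraries could hold some RNA of such cells. All 14 were in the table, and 8 had a mean of at least 1 TPM. Of these 8, Calcb, the gene of beta CGRP, rose (log2 difference 0.98, limma adjusted p = 0.0268) and Tac1, which encodes the precursor of substance P, fell (-3.57, adjusted p = 0.0128), and 6 did not pass. Over all rows tested, 1.86% were called higher and 3.17% lower. The log2 difference was above 0 for 7 of the 8 and below 0 for 1. Its median was 0.56, beside -0.05 over all rows tested. The unadjusted limma p was below 0.05 for 3 higher markers (Calcb, P2rx3 and Prdm12) and 1 lower (Tac1). Over all rows tested those shares were 9.77% higher and 14.1% lower. The summed level of all 14 was 1287 to 1572 TPM in knockout and 1305 to 1495 TPM in wild type, mostly from Prph, which encodes the intermediate filament peripherin. Nppb and Sst were at 0 in every library, Trpv1, the capsaicin receptor gene, was at 0 in every knockout library and at 0.30 TPM or less in wild type, and Trpa1 was at 0.40 TPM or less throughout. Mrgprd was at 3.99, 0.83 and 0 TPM in knockout and at 0 in each wild-type library.

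The nociceptor markers with the highest means, Prph and Calca, did not order the wild-type libraries alike. Prph had 1240.4, 1026 and 1363 TPM in knockout libraries, against 958, 1145 and 1376 TPM in wild-type libraries. Calca, the gene of alpha CGRP, had 147, 166 and 113 TPM in knockout libraries, against 238, 151 and 61.9 TPM in wild-type libraries. Wild-type replicate 1 was the highest wild-type library for Calca and the lowest for Prph, and wild-type replicate 3 was the reverse. The part of nociceptor RNA in the Scn10a and Scn11a values was not tested.

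Markers of satellite glia, which wrap the cell bodies, were also detected. The 8 markers summed to 465 to 1013 TPM in knockout and 854 to 1915 TPM in wild type. Of the 8, 2 (Fabp7 and Gja1) fell, beside 3.17% of all rows called lower. With the glial level as a covariate the log2 difference was 0.72 for Scn9a (adjusted p = 0.151), 0.81 for Scn10a, 1.46 for Scn11a and -1.16 for Scn3b, and none passed.

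The remaining channel genes of the family showed 1 call among the 5 tested, a rise, beside 1.86% of all rows called higher. Scn7a encodes Nax, a sodium-sensing relative that is not opened by voltage, and lies next to Scn9a on chromosome 2, 38.3 kb away (66673426 to 66784910). It rose, with 298, 226 and 299 TPM in knockout libraries, against 191, 184 and 162 TPM in wild-type libraries. Its log2 difference was 0.60 (SE 0.14, limma adjusted p = 0.0420), with groups that did not overlap. The call was lost when any single library other than knockout replicate 2 was left out (adjusted p from 0.0544 to 0.161). Of the 5 family genes tested, the other 4 did not pass. Nalcn, which carries the sodium leak current, averaged 11.8 ± 3.15 TPM in knockout and 18.9 ± 4.13 TPM in wild type (SD, n = 3 each; log2 difference -0.65, adjusted p = 0.137). Scn2a and Scn4a averaged 5.10 TPM or less in either genotype.

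Genes that anchor the channels at the initial segment and node moved in both directions. Of 12 tested, 1 rose, 1 fell and 10 did not pass, beside 1.86% of all rows called higher and 3.17% called lower. Nrcam, an adhesion molecule that gathers channels at nodes, rose, with 377, 316 and 304 TPM in knockout libraries, against 216, 195 and 202 TPM in wild-type libraries. The groups stood well apart (log2 difference 0.70, SE 0.12, limma adjusted p = 0.0142). Cntnap2, which holds Kv1 potassium channels beside the node, fell, with 146, 120.4 and 154 TPM in knockout libraries, against 216, 232 and 198 TPM in wild-type libraries (log2 difference -0.62, SE 0.13, adjusted p = 0.0292). Leaving out knockout replicate 1 or wild-type replicate 2 or 3 ended the Nrcam call (adjusted p from 0.0532 to 0.0689), and leaving out any 1 library but knockout replicate 3 ended that of Cntnap2 (0.0540 to 0.101).

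The scaffold itself did not pass. Ank3, picked after its values were seen, encodes ankyrin-G, which ties the channels to the membrane skeleton, and averaged 265 ± 28.1 TPM in knockout and 277 ± 10.4 TPM in wild type (SD, n = 3 each; log2 difference -0.07, 95% interval -0.32 to 0.18). The spectrin genes Sptbn1 and Sptan1 both had a log2 difference of -0.25 (adjusted p = 0.244 and 0.235). Cntn1, an adhesion protein that binds beta subunits, averaged 545 ± 14.0 TPM in knockout and 434 ± 24.5 TPM in wild type (SD, n = 3 each; log2 difference 0.33, adjusted p = 0.0831). Epb41l3, a membrane skeleton linker of the paranode, had a log2 difference of -0.10 (adjusted p = 0.680).

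Of 14 channel binding partners and regulators, 1 rose, 0 fell and 13 did not pass limma. Over all rows tested, 1.86% were called higher and 3.17% lower. Cdk5, a neuronal kinase gene picked after its values were seen, was lower by the unadjusted test (log2 difference -0.49, limma adjusted p = 0.0529). Prrt2, a presynaptic membrane protein that also binds Nav1.2 and Nav1.6, rose, with 132, 128 and 129.9 TPM in knockout libraries, against 75.3, 66.5 and 53.5 TPM in wild-type libraries. The knockout libraries lay close together and above all wild-type libraries (log2 difference 0.9999, SE 0.14, limma adjusted p = 0.00697). Without knockout replicate 1 the difference was 0.99 and did not pass (adjusted p = 0.0563), and it passed without any other single library. S100a10, the annexin partner p11 that brings Nav1.8 to the membrane, averaged 2410 ± 470.1 TPM in knockout and 1566 ± 157 TPM in wild type (SD, n = 3 each; log2 difference 0.61, adjusted p = 0.0538). Dpysl2 and Nedd4, which encode the Nav1.7-binding protein CRMP2 and a ubiquitin ligase, had log2 differences of -0.17 and 0.07 and did not pass.

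**Figure D4:**
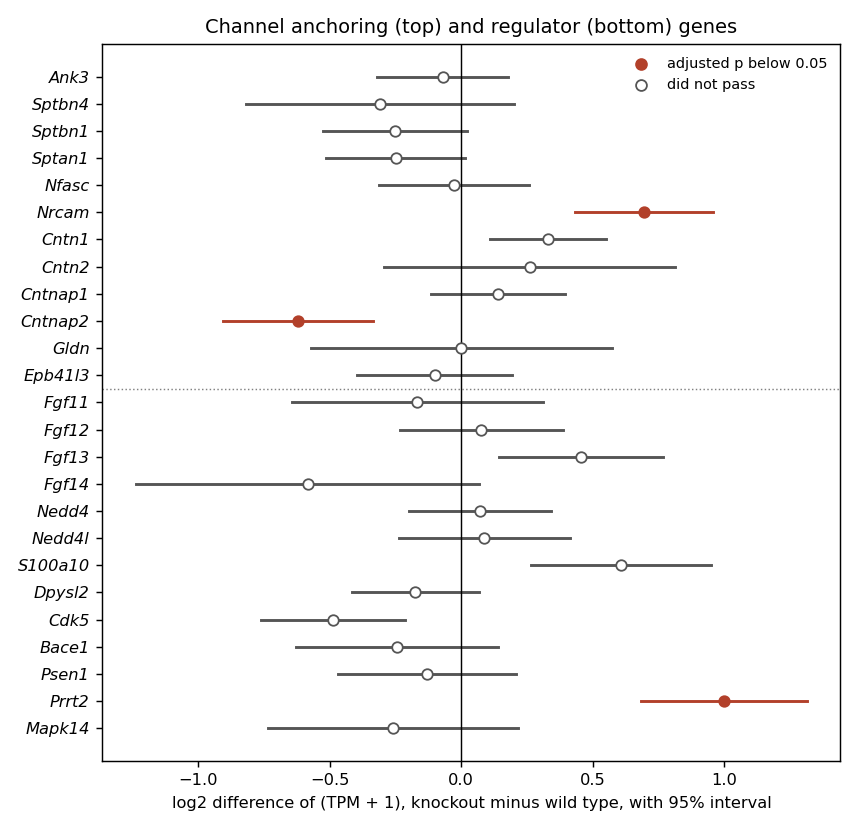
Log2 difference of (TPM + 1), knockout minus wild type, with 95% intervals from limma, for the 12 anchoring genes above the dotted line and 13 partners and regulators under it. Filled points mark Nrcam, Cntnap2 and Prrt2, the genes with an adjusted p below 0.05.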

How the data were processed

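RNA from parvalbumin-positive lumbar 4 ganglion neurons was extracted with the PicoPure kit and amplified with an Ovation kit before sequencing, per the labels' protocols; amplification from small inputs adds noise, above all to rare transcripts. The build was mm10, and RSEM 1.2.7, Bowtie2 and cutadapt are named, per the submitters' processing notes. The authors deposited TPM values, 1 column per library, which keep no depth. RSEM estimates how ambiguous reads divide among transcripts, so paralogous channel genes may exchange some.

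The members and lists were chosen with earlier results of these data known. The 13787 rows whose mean over 6 libraries reached 1 TPM were tested on log2(TPM + 1) with limma 3.58.1 (R 4.3.3), with genotype as the only term and a trend of variance on intensity. Tests were two-sided, with Benjamini-Hochberg adjustment over all rows and a threshold of 0.05. The scale understates changes of low genes. An exact permutation test of 3 against 3 cannot go below 0.1. The limma step was tested on simulated data, with 200 changed rows in each of 10 runs, fewer than the 693 called in the data. It recovered 12% of 1.5-fold, 48.2% of 2-fold and 87.9% of 4-fold changes, averaged over rows of all levels. A gene that did not pass can therefore still differ. Scn2a and Epb41l3 were matched through synonyms, and Whrn was not found by name. 3′ UTRs were the longest of complete protein-coding transcripts of GENCODE vM21 (GRCm38, the same assembly as mm10). microRNA sequences were from RefSeq (GRCm38.p6). Named genes were the members, Dicer1, Pvalb, called genes of each list and up to 4 others with the highest mean. A rule for genes resembling the called members named none, as no member was called. Alternatives covered the pseudocount, filter, scaling, library weights, trend, replicate block, a glial covariate and leaving out libraries. Results of a few listed genes are not reported here, though they count in the list totals.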

Additional observations from a re-analysis of the deposited data

How the results depend on the processing

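All 9 members kept their direction under every alternative run (151 values), and 5 of these values passed where the reported one did not: Scn9a with median-of-ratios scaling (0.69), quantile normalization (0.69), library weights (0.73) and without knockout replicate 2 (0.80), and Scn11a without wild-type replicate 1 (1.99). So 1 member was called higher in each of these settings, 0 in the others, and 0 were called lower in any. Leaving out single libraries gave 0 to 1 members higher, 33 to 329 of all rows higher and 91 to 461 lower, and 0 to 3 partner genes higher and 0 to 1 lower, against 256 and 437 rows and 3 and 1 partner genes as reported. All rows called fell to 130 higher and 248 lower with no filter on low values, 57 and 168 with no intensity trend, 73 and 100 with the glial covariate, and 3 and 14 without replicate 3 of both groups, a setting chosen after seeing the data. Partner genes called lower numbered 2 with a filter at a mean of 5 TPM or with library weights, and 0 with no filter, the replicate block, no intensity trend, the glial covariate or without replicate 3 of both groups. Those called higher numbered 1 with no intensity trend and 0 in both of the last settings. Of 17 alternatives, Prrt2 passed in 14, Nrcam in 11, and Scn7a and Cntnap2 in 7 each. The cause of these changes was not tested. A mean of 5 TPM left Scn3a, Scn3b and Scn2b untested. With the replicate number as a block, 188 rows were called higher and 341 lower. Deviations of same-numbered libraries correlated at 0.0492, 0.0659 and 0.0382, and not every library correlated best with its own number, so the numbers were not taken to pair the libraries, although replicate 3 of both groups shared its sex-linked pattern. Under the block Scn7a and Cntnap2 had adjusted p-values of 0.0639 and 0.0618, and no member's call changed. The nociceptor-type share averaged 13.1% in knockout and 8.87% in wild type with all 10 alpha subunit genes in the sum, and 3.95% and 1.496% with Scn10a and Scn11a alone. Depth is unknown, which limits the low genes most.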
